A study of Mus musculus with 12 samples.

Results

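Activity-regulated genes are those that a neuron transcribes soon after it has fired, and 39 of them were followed here through 12 libraries of mouse hippocampal RNA. They were chosen by symbol from a list of early and late response genes. The rule used no measured value, but the list was drawn up with earlier results of these data known. All 39 had a row in the table of 24421 genes, and 36 passed the filter on low counts, which 13065 genes passed in all. They were split by role into 19 rapid transcription factors (17 passed), 12 rapid regulators of signalling or growth (11 passed) and 8 effectors (8 passed). Atf3, a stress-induced transcription factor, stayed below the filter at 0.500 to 2.53 CPM (counts scaled to library size), and Maff, a small Maf factor, at 0.500 to 1.67 CPM. Dusp5, a nuclear phosphatase of ERK, had 2 counts in all 12 libraries together, both in 5xFAD replicate 1.

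Synaptic activity opens calcium channels and NMDA receptors, and the calcium signal reaches the nucleus through kinases and phosphatases that act on CREB, SRF with its partners, and MEF2. These factors already sit at the promoters of immediate early genes, which are therefore transcribed within minutes and without new protein synthesis. The transcription factors among them, of the Fos, Jun, Egr and Nr4a families with Npas4, then act on further genes. Effector genes such as Arc, Homer1 and Nptx2 encode proteins that work at synapses. The split by role used here does not order the genes by time of induction. In the hippocampus, Fos, Egr1 and Arc mRNA rise with exploration, handling and seizures, and serve to mark neurons that were recently active.

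The study profiled the hippocampus of mice 2 months old, all injected with BrdU before dissection, by 3′ mRNA sequencing in 4 genotypes with 3 libraries each. The genotypes were wild type (WT), 5xFAD, p75NTRko and 5xFAD/p75NTRko. The 5xFAD line expresses mutant human transgenes of familial Alzheimer's disease from the Thy1 promoter, which is active in neurons, and p75NTRko is labelled as lacking the p75 neurotrophin receptor encoded by Ngfr. The series title asks how this receptor shapes neurogenesis in the adult hippocampus in Alzheimer's disease. The titles number the libraries as biological replicates, and the strain, the knockout allele, the hour of dissection and any pooling of animals are not given in the sources used here.

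The libraries held 4316739 to 6683613 counts assigned to genes, so that 3 counts, taken as the limit of measurement, corresponded to 0.446 to 0.690 CPM. No pair of libraries of a genotype was as alike as counting noise alone would make it, with the lowest ratio of chi-square to its degrees of freedom at 2.97. Ngfr ran against its label, at 5.95 to 10.5 CPM in the 6 libraries labelled p75NTRko or 5xFAD/p75NTRko and at 0.166 to 1.95 CPM in the other 6. A 3′ tag checks a knockout only if it lies in the deleted part, which is not known here, so those 6 libraries are called p75NTRko-labelled and 5xFAD/p75NTRko-labelled. Thy1, whose promoter drives the transgenes, was 1596 to 4019 CPM in the 6 libraries with the 5xFAD label and 688 to 940 CPM in the other 6. Xist, a marker of female cells, was high in 7 libraries (all WT, all 5xFAD/p75NTRko-labelled and p75NTRko-labelled replicate 1) and low in 5. Animal sex and genotype therefore cannot be told apart in 5xFAD against WT or in 5xFAD/p75NTRko-labelled against 5xFAD libraries. They are partly mixed in the comparisons with p75NTRko-labelled libraries and in the interaction. Hippocampal neuron markers (12 of 12 passed the filter) summed to 2734 to 3688 CPM in every library.

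Promoter sequences are shown for 5 members because they hold letter matches to the binding elements of CREB or SRF and because the first 4 of them turned out to be high in the same library. No link between the matches and those levels was tested. The RefSeq table of GRCm38.p6 held 38 promoters, 250 bases before to 50 after a transcript start, for 31 of the 39 members. It had no entry for Arc, Egr1, Egr3, Ier2, Nptx2, Sik1, Trib1 and Vgf. Capitals mark the core cAMP response element TGACG on either strand (CGTCA on the printed one), the full palindrome TGACGTCA in which 2 cores overlap, and the CArG box, the binding element of SRF, in Egr2. Each line is the sense strand, 5′ to 3′. The positions are chr12:85473640-85473939 (plus strand) for Fos, chr10:67537316-67537615 (plus) for Egr2, chr15:101266596-101266895 (plus) for Nr4a1, chr17:26508423-26508722 (minus) for Dusp1 and chr13:110394794-110395093 (plus) for Plk2.
Fos: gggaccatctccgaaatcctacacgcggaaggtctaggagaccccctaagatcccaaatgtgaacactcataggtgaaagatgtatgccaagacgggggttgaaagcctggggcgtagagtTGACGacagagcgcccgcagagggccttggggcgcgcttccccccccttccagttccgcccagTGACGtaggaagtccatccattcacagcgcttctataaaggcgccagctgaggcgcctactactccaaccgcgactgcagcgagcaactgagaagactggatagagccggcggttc
Egr2: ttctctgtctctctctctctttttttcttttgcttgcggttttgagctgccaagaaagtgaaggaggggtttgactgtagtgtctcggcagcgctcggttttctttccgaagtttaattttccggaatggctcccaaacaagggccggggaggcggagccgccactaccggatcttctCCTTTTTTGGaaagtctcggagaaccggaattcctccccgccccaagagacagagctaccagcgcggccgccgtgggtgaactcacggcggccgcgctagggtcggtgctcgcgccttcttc
Nr4a1: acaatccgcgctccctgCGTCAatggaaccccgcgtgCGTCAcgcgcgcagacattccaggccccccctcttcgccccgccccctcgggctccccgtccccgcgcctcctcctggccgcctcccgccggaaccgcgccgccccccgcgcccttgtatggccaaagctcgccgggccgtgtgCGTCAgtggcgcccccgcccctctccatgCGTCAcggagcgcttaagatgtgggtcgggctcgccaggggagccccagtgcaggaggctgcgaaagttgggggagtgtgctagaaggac
Dusp1: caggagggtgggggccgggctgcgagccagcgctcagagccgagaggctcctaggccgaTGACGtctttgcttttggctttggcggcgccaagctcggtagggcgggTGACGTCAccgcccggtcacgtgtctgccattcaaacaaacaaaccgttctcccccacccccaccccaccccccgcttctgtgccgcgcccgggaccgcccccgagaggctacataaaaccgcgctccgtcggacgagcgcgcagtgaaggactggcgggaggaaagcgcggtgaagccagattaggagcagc
Plk2: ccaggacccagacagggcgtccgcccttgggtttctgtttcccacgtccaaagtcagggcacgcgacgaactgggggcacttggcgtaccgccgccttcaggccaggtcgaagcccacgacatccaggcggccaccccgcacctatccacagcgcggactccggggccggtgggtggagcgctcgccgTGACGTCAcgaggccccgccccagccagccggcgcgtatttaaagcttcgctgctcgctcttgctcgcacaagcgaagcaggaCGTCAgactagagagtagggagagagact

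Counted from the transcript start, the 2 cores of Fos began at bases -129 and -66, and the CArG box of Egr2 at -72. Nr4a1 held 4 cores, all as CGTCA, beginning at -233, -213, -69 and -40. Dusp1 and Plk2 held the full palindrome, at -143 and -62. Of the 31 members with a promoter, 22 (71.0%) held at least 1 TGACG on either strand in any of their promoters, against 23.0% of 27025 genes with promoters of the same length. Egr2 was among the 22 through a promoter that is not shown. The full TGACGTCA stood in 6 members (19.4%: Maff, Dusp1, Btg2, Plk2, Pcsk1 and Scg2), against 2.03% of genes. CArG boxes stood in 2 members (6.45%: Egr2 and Dusp5), against 1.81% of genes. The EGR-family motif GCGNGGGCG stood in 10 members (32.3%), among them Nr4a1, Nr4a2, Fosb and Klf2, against 6.27% of genes. TGANTCA, the motif of Fos-Jun dimers, was in 0 of the 31, against 8.97% of genes. These are matches of letters in a short window and do not show binding.

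Gene length does not enter levels in CPM here, because a read comes from the 3′ end of a transcript. Reads in no annotated gene (28.9% to 33.5%) and multiply aligned reads (9.57% to 12.1%) were not counted, so the ranking between genes is approximate. Among rapid transcription factors the mean over 12 libraries was highest for Egr1 (227 CPM), Nr4a1 (182 CPM) and Egr3 (148 CPM). Fos and Npas4 were near the other end, at a mean of 11.3 and 1.9996 CPM, and Egr2 at 4.53 CPM. Among rapid regulators, Ier5 (323 CPM), Dusp6 (225 CPM) and Rgs2 (112 CPM) led. Among effectors, Scg2 (427 CPM), Homer1 (194 CPM) and Vgf (157 CPM) led, and Arc averaged 55.2 CPM. Counts are per symbol, so the short activity-induced Homer1 transcript was not separated from the long constitutive ones.

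Seen library by library, 18 of the 28 rapid genes were highest in a single library, 5xFAD/p75NTRko-labelled replicate 3, which was singled out after its values were seen. It held the highest level of 19 of the 36 members (52.8%), against 8.89% of all tested genes, and the lowest level of 0 of them. By role these were 11 of 17 rapid transcription factors, 7 of 11 rapid regulators and 1 of 8 effectors, which was Arc. 5xFAD/p75NTRko-labelled replicate 1, of the same genotype, held the lowest level of 12 of 36 members (33.3%, against 6.66% of all tested genes).

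**Figure D1:**
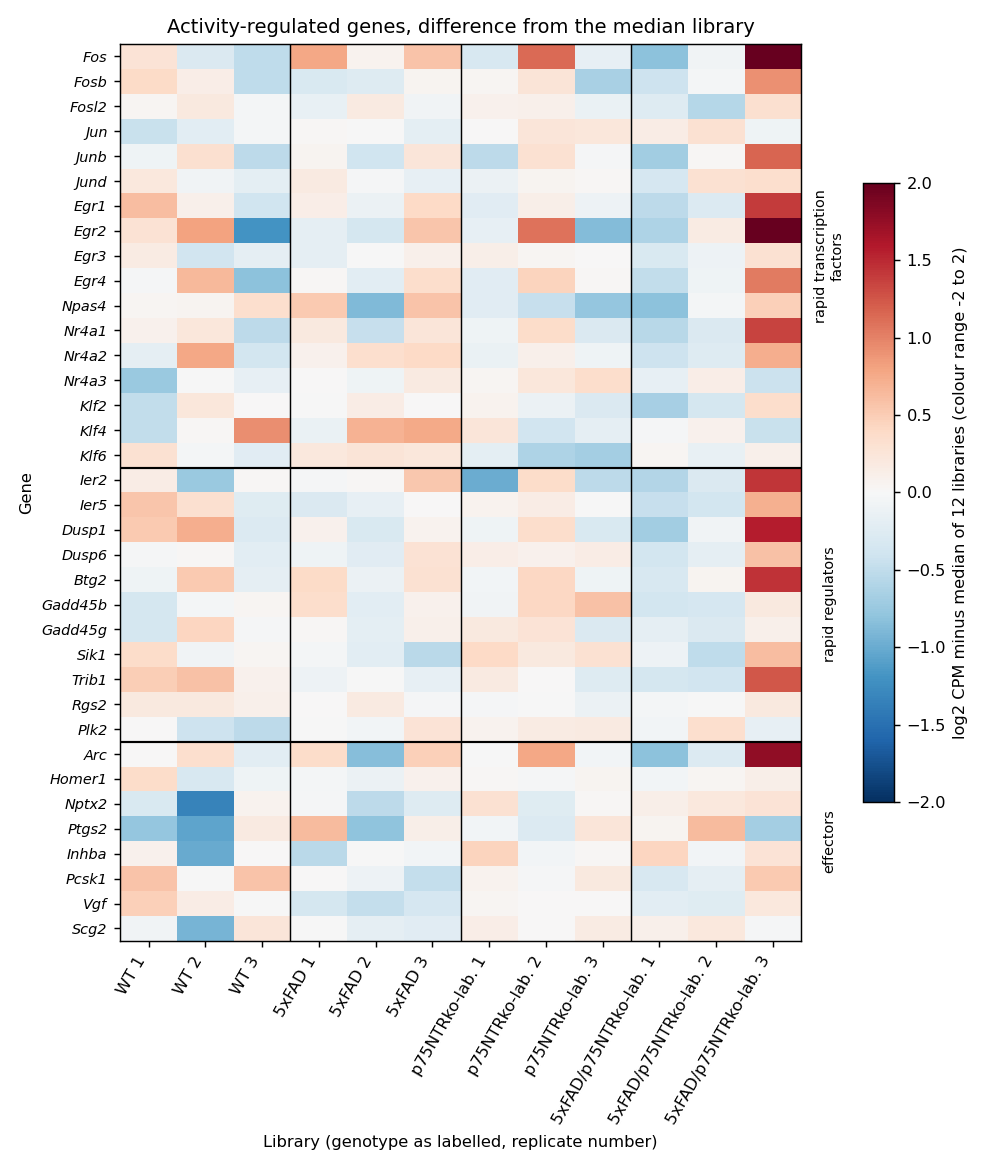
Level of the 36 tested members (rows, grouped by role) in each of the 12 libraries (columns, grouped by genotype as labelled), as log2 CPM with a prior count of 2 minus the median of the 12 libraries. Red is above and blue below that median, with colours saturating at -2 and 2: the last column, 5xFAD/p75NTRko-labelled replicate 3, is red for most rapid genes and for Arc among the effectors.

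Fos, the partner of Jun in the AP-1 factor, was at 10.01, 6.65 and 5.64 CPM for WT (replicates 1, 2 and 3), 14.3, 8.64 and 12.4 for 5xFAD, 6.49, 18.4 and 7.28 for the p75NTRko label and 4.496, 7.797 and 33.9 for the 5xFAD/p75NTRko label. Egr1, a zinc finger factor of synaptic plasticity, was at 305, 213 and 149 CPM for WT (replicates 1, 2 and 3), 217, 183 and 261 for 5xFAD, 170.2, 215 and 184 for the p75NTRko label and 137, 164 and 524 for the 5xFAD/p75NTRko label. In both genes replicate 3 of the double genotype lay above the other 11 libraries, while replicates 1 and 2 lay at or below the median of the other 11 libraries. Nr4a1, an orphan nuclear receptor, was at 177, 195 and 116 CPM for WT (replicates 1, 2 and 3), 192, 121 and 198 for 5xFAD, 157, 215 and 137 for the p75NTRko label and 113, 136 and 427 for the 5xFAD/p75NTRko label. Junb, an AP-1 partner, was at 131, 172 and 96.1 CPM for WT (replicates 1, 2 and 3), 144, 105 and 165 for 5xFAD, 96.02, 171 and 136 for the p75NTRko label and 85.8, 141 and 312 for the 5xFAD/p75NTRko label. Both were again highest in replicate 3, and the next library, p75NTRko-labelled replicate 2 for Nr4a1 and WT replicate 2 for Junb, reached 215 and 172 CPM.

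Egr2, a zinc finger factor with the CArG box shown above, was at 3.44, 5.03 and 0.995 CPM for WT (replicates 1, 2 and 3), 2.38, 2.07 and 4.21 for 5xFAD, 2.41, 6.21 and 1.34 for the p75NTRko label and 1.67, 3.12 and 21.5 for the 5xFAD/p75NTRko label. Its count outside that library was low, and its level there was 8.98 times the mean of replicates 1 and 2. The same ratio was 5.52 for Fos, 3.48 for Egr1, 3.43 for Nr4a1, 2.75 for Junb, 2.52 for Egr4, 2.35 for Fosb and 2.09 for Nr4a2. Egr3 (ratio 1.42), Klf6 (1.11) and Jund (1.24) differed less. Jun (0.805), Nr4a3 (0.748) and Klf4 (0.701) were lower in replicate 3 than in the mean of the other 2, so not every rapid factor was high in it.

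Npas4, a neuron-specific factor that responds to depolarisation and calcium rather than to growth factors, was at 2.09, 2.11 and 2.65 CPM for WT (replicates 1, 2 and 3), 3.06, 0.939 and 3.16 for 5xFAD, 1.67, 1.38 and 1.04 for the p75NTRko label and 0.999, 1.95 and 2.95 for the 5xFAD/p75NTRko label. Its highest value was in 5xFAD replicate 3, the 12 libraries ran from 0.939 to 3.16 CPM, not far above the limit of measurement, and the p75NTRko-labelled libraries all lay below WT. Egr3 was at 169, 116 and 132 CPM for WT (replicates 1, 2 and 3), 133, 149 and 162 for 5xFAD, 164, 154 and 151 for the p75NTRko label and 122, 140.3 and 186 for the 5xFAD/p75NTRko label, with every genotype overlapping every other.

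Among rapid regulators, Dusp1, a nuclear phosphatase that switches off MAP kinases, was at 56.8, 66.1 and 32.5 CPM for WT (replicates 1, 2 and 3), 41.9, 32.1 and 41.7 for 5xFAD, 37.3, 50.8 and 32.1 for the p75NTRko label and 24.3, 37.6 and 118 for the 5xFAD/p75NTRko label. Btg2, an antiproliferative cofactor, was at 34.8, 53.2 and 32.4 CPM for WT (replicates 1, 2 and 3), 48.2, 33.99 and 45.6 for 5xFAD, 35.6, 48.97 and 34.5 for the p75NTRko label and 29.5, 38.01 and 100.3 for the 5xFAD/p75NTRko label. Both were highest in 5xFAD/p75NTRko-labelled replicate 3, at 3.82 and 2.97 times the mean of replicates 1 and 2. The ratio was 4.09 for Ier2, 3.07 for Trib1 (a pseudokinase), 2.17 for Ier5 and 1.95 for Sik1 (a salt-inducible kinase), and 0.805 for Plk2, a kinase that acts on postsynaptic density proteins.

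Ier5, the most abundant regulator, was at 451, 383 and 259.6 CPM for WT (replicates 1, 2 and 3), 253, 274 and 309 for 5xFAD, 323, 343 and 308 for the p75NTRko label and 225, 239 and 504 for the 5xFAD/p75NTRko label. Dusp6, the cytoplasmic phosphatase of ERK, was at 215, 224 and 189 CPM for WT (replicates 1, 2 and 3), 207, 188 and 268 for 5xFAD, 242, 232 and 243 for the p75NTRko label and 171, 193 and 329 for the 5xFAD/p75NTRko label. Rgs2, which shortens signalling by G proteins, was at 124, 123 and 115 CPM for WT (replicates 1, 2 and 3), 108, 122 and 106 for 5xFAD, 105, 107 and 99.8 for the p75NTRko label and 105, 107 and 123 for the 5xFAD/p75NTRko label. Ier5 and Dusp6 had their highest value in the same replicate 3, while Rgs2 varied little, with a biological coefficient of variation (the spread between libraries of a genotype beyond counting noise) of 8.57%.

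Of the 8 effectors, only Arc had its highest level in that library. Arc, which controls the removal of AMPA receptors from synapses, was at 44.8, 56.2 and 38.7 CPM for WT (replicates 1, 2 and 3), 57.4, 24.4 and 62.1 for 5xFAD, 44.3, 76.1 and 42.96 for the p75NTRko label and 25.1, 36.8 and 153 for the 5xFAD/p75NTRko label, with a ratio of 4.94. Homer1, a postsynaptic scaffold, was at 247, 154 and 182 CPM for WT (replicates 1, 2 and 3), 187, 177 and 205 for 5xFAD, 196, 189 and 201 for the p75NTRko label and 185, 198 and 209.5 for the 5xFAD/p75NTRko label. Scg2, a secretogranin of dense-core vesicles, was at 412, 227 and 510.5 CPM for WT (replicates 1, 2 and 3), 432, 382 and 369 for 5xFAD, 477, 434 and 484 for the p75NTRko label and 464, 503 and 424 for the 5xFAD/p75NTRko label. The ratio was 1.095 for Homer1, 0.877 for Scg2, 1.07 for Nptx2, 1.06 for Inhba and 0.461 for Ptgs2, the inducible cyclooxygenase, so these 5 were near or below the other 2 libraries of the genotype. It was 1.77 for Pcsk1 and 1.36 for Vgf, within the range of ratios of the rapid genes.

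**Figure D2:**
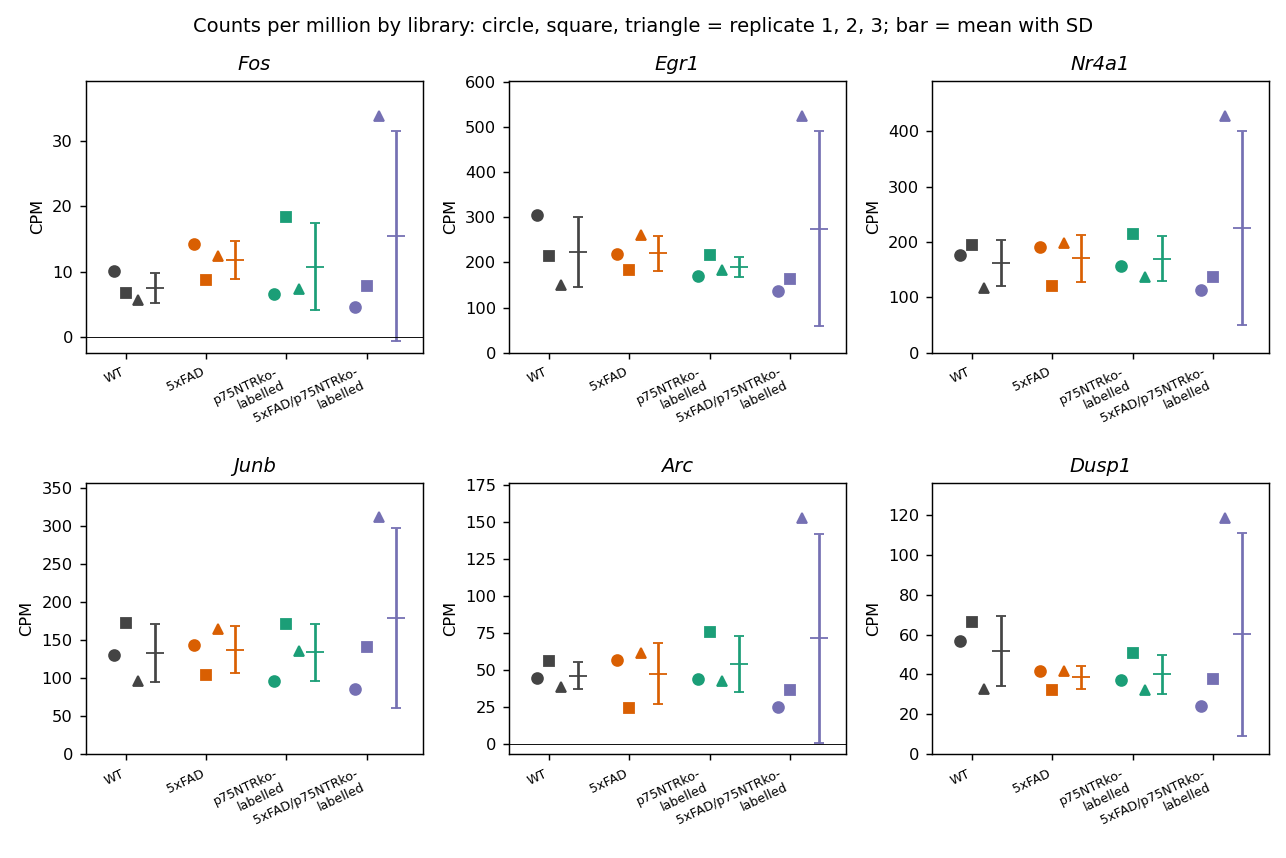
CPM of 6 members in each library by genotype as labelled (circle, square and triangle are replicates 1, 2 and 3, and the bar is the mean with SD over 3 libraries), on linear axes. The triangle of the 5xFAD/p75NTRko-labelled group is above the other 11 libraries in every panel, at 33.9 CPM for Fos and 153 CPM for Arc.

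On the log2 scale, the median difference of replicate 3 from the mean of the other 2 libraries of its genotype was 0.91 over the rapid transcription factors, 0.93 over the rapid regulators, 0.12 over the effectors and -0.003 over all tested genes. It was above 0 for 30 of 36 members, against 6501 of the 13065 tested genes. It was above 1 for 14 of 36 (38.9%), against 1.94% of all tested genes. The rapid genes spread most in this genotype, with a median within-genotype SD of log2 CPM of 0.62 for rapid transcription factors and 0.57 for rapid regulators, against 0.40 and 0.28 in WT. Effectors spread most in WT, at 0.47 against 0.25 in the 5xFAD/p75NTRko-labelled libraries. WT was the most spread genotype for 4 of the 8 and the double genotype for 3. Over all tested genes WT was also the most spread most often (36.6%), followed by the double genotype (30.7%), so this is not particular to effectors. Over all members the median within-genotype SD of log2 CPM was 0.38 for WT, 0.23 for 5xFAD, 0.24 for the p75NTRko label and 0.51 for the 5xFAD/p75NTRko label, against 0.22, 0.15, 0.15 and 0.20 over all tested genes. The last genotype was the most spread for 23 of the 36 (63.9%, against 30.7% of all tested genes). Even over all genotypes these genes were variable, with a median biological coefficient of variation of 27.3% for rapid transcription factors, 19.1% for rapid regulators and 18.7% for effectors, against 13.2% for all tested genes. Egr2 (63.7%), Fos (47.01%), Arc (42.6%) and Ier2 (41.2%) were the most variable members.

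Markers of tissue next to the hippocampus differed between libraries as well. A list of 12 neocortical markers, added after the values were seen and all passing the filter, summed to 720.4 CPM in 5xFAD/p75NTRko-labelled replicate 3, 714 CPM in WT replicate 1, 538 CPM in WT replicate 2 and 352 to 457 CPM in the other 9. WT replicate 1 was second only to replicate 3 of the double genotype in Egr1 (305 CPM), Ier5 (451 CPM), Egr3 (169 CPM) and Fosb (4.33 CPM), while its Fos (10.01 CPM) and Arc (44.8 CPM) lay within the range of the other libraries. It was among the 2 highest libraries for 6 of the 28 rapid genes (21.4%) and for 17.7% of all tested genes. Mean log2 CPM of the hippocampal neuron markers was 6.59 in replicate 3 and 6.38 in WT replicate 1, the third lowest and the lowest of 12, with up to 7.02 elsewhere. 5xFAD/p75NTRko-labelled replicate 1, with the lowest rapid genes, had 7203 CPM of choroid plexus markers (10 of 10 tested) and 939 CPM of thalamic markers (10 of 10 tested). These were 177 and 277 CPM in replicate 2 and 359 and 394 CPM in replicate 3 of that genotype. Its rapid transcription factors had a mean log2 CPM of 4.91. That mean was 5.22 in p75NTRko-labelled replicate 1, with 7261 CPM of choroid plexus markers, and 5.47 in WT replicate 2, with 746 CPM of thalamic markers. 5xFAD/p75NTRko-labelled replicate 3 also had the lowest share of unaligned reads, 18.6%, and the highest share assigned to genes, 38.5%. The part of these differences in the levels of the members was not tested, and in bulk tissue fewer cells of a type and less RNA per cell cannot be told apart.

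**Figure D3:**
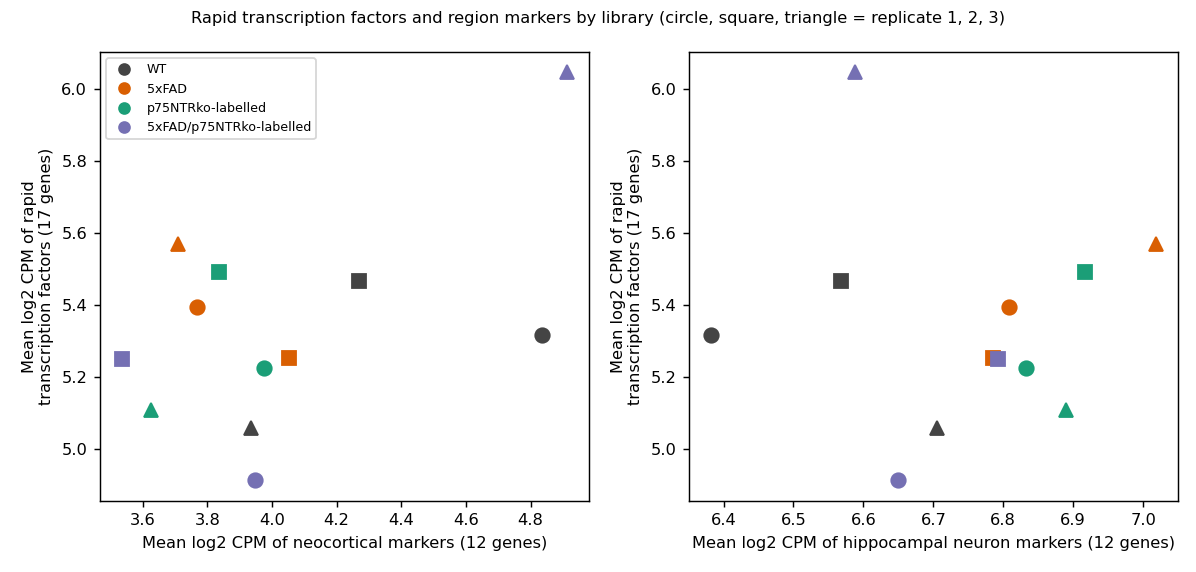
Mean log2 CPM of the 17 tested rapid transcription factors in each library (vertical axis) against mean log2 CPM of 12 neocortical markers (left panel) and of 12 hippocampal neuron markers (right panel), with colour for genotype as labelled and shape for replicate. 5xFAD/p75NTRko-labelled replicate 3 has the highest neocortical level, 4.91, and the highest rapid factors, 6.05, while WT replicate 1, with a neocortical level of 4.84, has rapid factors at 5.32.

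The correlation of the members from library to library depended in part on 5xFAD/p75NTRko-labelled replicate 3. Egr1, the most abundant rapid factor, served as reference for 35 relations across the 12 libraries on log2 CPM, tested with 100000 permutations each and Benjamini-Hochberg adjustment over the 35. Pearson's r was above 0.7 for 13 members, against 2.43% of the other tested genes: 6 of 16 rapid transcription factors, 6 of 11 rapid regulators and Arc alone of 8 effectors. For 15 members the adjusted p of r was below 0.05. By Spearman's rho the adjusted p was below 0.05 for Nr4a1, Fos, Arc, Dusp1 and Egr4 alone. No p was computed for the other tested genes or without 5xFAD/p75NTRko-labelled replicate 3, so the 15 have no share over all genes beside them. The median r was 0.52 over the members and -0.01 over all other tested genes. Without 5xFAD/p75NTRko-labelled replicate 3, r was above 0.7 across the other 11 libraries for 3 members, Nr4a1 (0.78), Ier5 (0.76) and Dusp1 (0.76), against 1.1% of the other tested genes. Fos (0.68), Junb (0.67), Fosb (0.67) and Egr4 (0.65) then lay just below 0.7. The median over the members was then 0.43, against -0.02 over the other tested genes.

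Nr4a1 was closest to Egr1, with r = 0.92 (permutation p 0.00021, adjusted 0.00513) and Spearman's rho = 0.86 (p 0.00073, adjusted 0.0173). For Fos, r was 0.86 (permutation p 0.00092, adjusted 0.00612) and rho 0.85 (p 0.00099, adjusted 0.0173). For Arc, r was 0.83 (permutation p 0.00168, adjusted 0.00716) and rho 0.82 (p 0.00202, adjusted 0.0236). Without the 2 libraries farthest from the median of Egr1 (5xFAD/p75NTRko-labelled replicate 3 and WT replicate 1), r was 0.87 for Nr4a1, 0.78 for Fos and 0.76 for Arc across 10 libraries. Without 5xFAD/p75NTRko-labelled replicate 3 alone, r was 0.78, 0.68 and 0.61 in the same order, and 0.53 for Btg2. Within the 7 libraries with high Xist, which include both of those farthest libraries, r was 0.95, 0.95 and 0.90.

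Other relations rested on those 2 libraries. For Trib1, r was 0.79 (permutation p 0.00579, adjusted 0.0156) with rho 0.49 (p 0.110, adjusted 0.184), and r was 0.26 without them. For Egr3, r was 0.68 (permutation p 0.0122, adjusted 0.0304) with rho 0.63 (p 0.0319, adjusted 0.0772), and r was 0.33 without them. Across 10 libraries, 9 members had r above 0.7 (5 rapid transcription factors, 3 rapid regulators and Arc), against 1.01% of the other tested genes, and of these Nr4a2 had been below 0.7 across 12. Jun ran the other way, with r = -0.50 (permutation p 0.0966, adjusted 0.169) and rho = -0.50 (p 0.104, adjusted 0.181). In all, 8 of the 35 members had r below 0, while the median r over all other tested genes was -0.01. Nr4a3 went from r = -0.48 (permutation p 0.120, adjusted 0.189; rho -0.08, p 0.800, adjusted 0.800) to 0.51 without the 2 libraries. All members share their libraries' depth and dissection, so these relations are not independent of each other.

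**Figure D4:**
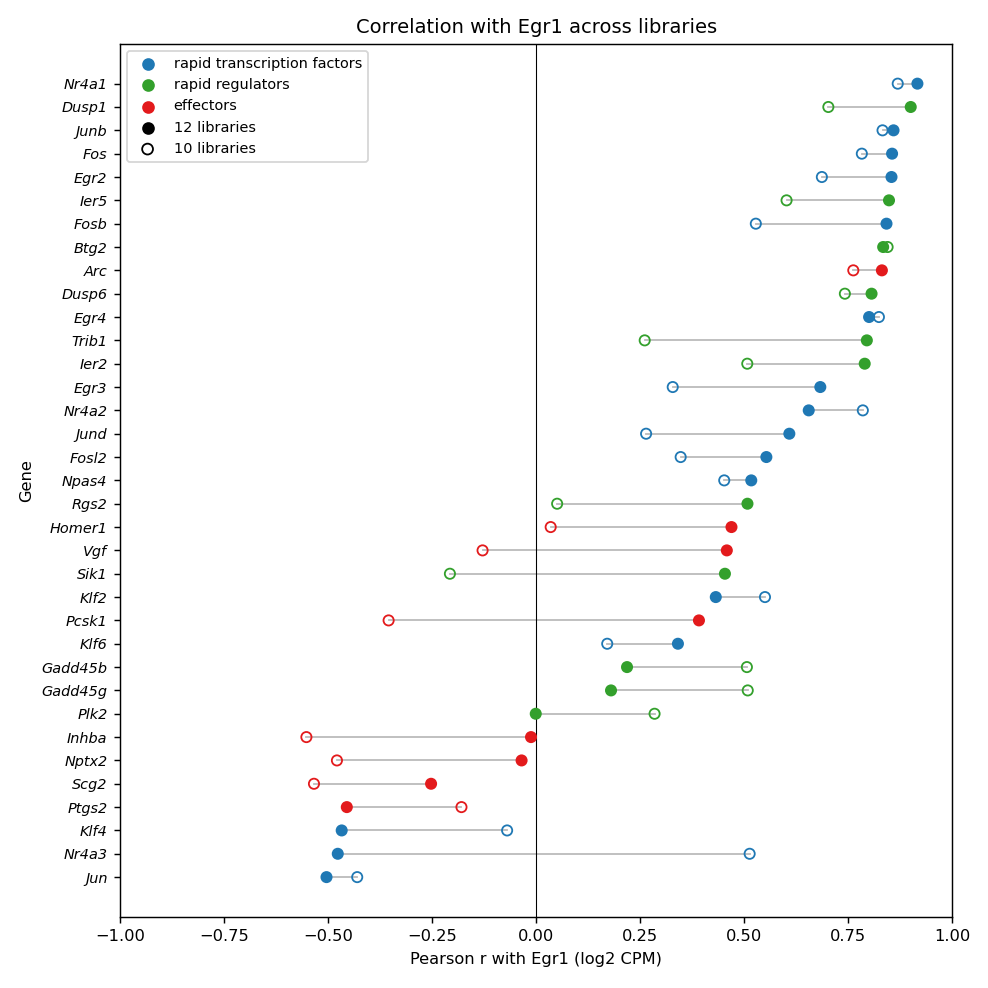
Pearson's r of log2 CPM of each of 35 members with Egr1 (horizontal axis), ordered by r over 12 libraries and coloured by role, with filled circles for 12 libraries and open circles for the 10 left without the 2 libraries farthest from the median of Egr1. Nr4a1, Fos, Junb, Btg2, Egr4, Dusp6, Dusp1 and Arc stay above 0.7 in both, and most effectors lie near or below 0 once the 2 libraries are left out.

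Across genotypes, no member passed the adjusted threshold. In the quasi-likelihood test of edgeR, adjusted by Benjamini-Hochberg over all 13065 genes, 0 of 36 members passed an adjusted p of 0.05 in any of 6 comparisons or in the test of any difference among the 4 genotypes. The genes called over the whole table were 0.0536% for 5xFAD against WT, 0% for p75NTRko-labelled against WT, 0.0383% for 5xFAD/p75NTRko-labelled against 5xFAD, 0% against p75NTRko-labelled, 0% against WT, 0.0383% for the interaction and 0.0995% among the 4 genotypes. DESeq2 called 0 members in 5 of the 6 comparisons and Vgf in 5xFAD against WT, and Vgf and Klf6 among the 4 genotypes. At an unadjusted p below 0.05, edgeR counted 3 of 36 members among the 4 genotypes, against 10.4% of all tested genes: Klf6 (p 0.00161, adjusted 0.174), Vgf (p 0.00366, adjusted 0.252) and Jun (p 0.0261, adjusted 0.428).

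In 5xFAD against WT, the neuropeptide precursor Vgf was the member with the smallest p. The median log2 fold change of the rapid transcription factors was 0.06, with -0.07 for rapid regulators, 0.04 for effectors and -0.004 for all tested genes. None of the 3 role medians kept its sign when libraries were left out in turn (-0.02 to 0.19, -0.11 to 0.12 and -0.20 to 0.14). Unadjusted p was below 0.05 for 2 of 36 members, against 13.9% of all tested genes: Plk2 upward (7.73% of all tested genes were called upward) and Vgf downward (6.14%). Libraries of the 2 genotypes did not overlap for 2 of 36, Trib1 and Vgf, both lower in 5xFAD, against 19.6%.

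Vgf (chr5:137026392-137033351, plus strand, GRCm38) is induced by neurotrophins and activity and stored in dense-core vesicles. It was at 224, 178 and 161 CPM for WT (replicates 1, 2 and 3), 126, 115 and 127 for 5xFAD, 166, 162 and 162 for the p75NTRko label and 139.7, 135 and 187 for the 5xFAD/p75NTRko label. The 3 5xFAD libraries were the 3 lowest of 12, and p75NTRko-labelled libraries hardly differed among themselves. Means were 188 ± 32.8 CPM for WT, 123 ± 6.64 for 5xFAD, 163 ± 2.301 for the p75NTRko label and 154 ± 28.6 for the 5xFAD/p75NTRko label (SD, n = 3 each). The log2 fold change in 5xFAD against WT was -0.61 (SE 0.134), with an adjusted p of 0.116 by edgeR, 0.00902 by DESeq2, 0.0367 by edgeR with no filter on low counts, 0.0447 without WT replicate 3, and up to 0.364 when other libraries were left out in turn. With Xist class as a term the log2 fold change was -0.58 (SE 0.254, edgeR adjusted p 0.949). Xist class varied within a genotype only among the p75NTRko-labelled libraries. The term therefore rests on replicate 1 against replicates 2 and 3 of that label, and cannot separate sex from genotype here. Thalamic markers differed in the same direction (345 to 400 CPM in 5xFAD, 555 to 798 CPM in WT), as did choroid plexus markers (319 to 1935 CPM against 2409 to 5937 CPM) and Xist (low in all 3 against high in all 3). Neocortical markers had a median log2 fold change of -0.56 and hippocampal neuron markers of 0.40 in the same comparison. The 3 libraries with the highest Vgf, WT replicate 1, 5xFAD/p75NTRko-labelled replicate 3 and WT replicate 2, were also the 3 with the highest neocortical marker sums. The part of the tissue markers in the Vgf difference was not tested.

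Pcsk1, the prohormone convertase that processes peptide precursors, was at 6.43, 4.22 and 6.47 CPM for WT (replicates 1, 2 and 3), 4.24, 3.94 and 2.95 for 5xFAD, 4.45, 4.14 and 4.91 for the p75NTRko label and 3.33, 3.704 and 6.23 for the 5xFAD/p75NTRko label, with a log2 fold change of -0.61 (SE 0.295, edgeR adjusted p 0.372) in 5xFAD against WT. 5xFAD replicate 1 reached just above the lowest WT library. Plk2 was at 73.4, 54.9 and 50.9 CPM for WT (replicates 1, 2 and 3), 73.3, 70.8 and 88.99 for 5xFAD, 77.1, 82.5 and 83.3 for the p75NTRko label and 70.8, 92.6 and 65.7 for the 5xFAD/p75NTRko label. Its log2 fold change was 0.38 (SE 0.153, edgeR adjusted p 0.322) in 5xFAD against WT. On average WT was the lowest genotype, but WT replicate 1 lay above 5xFAD replicates 1 and 2. Egr1 averaged 223 ± 77.999 CPM for WT, 221 ± 38.9 for 5xFAD, 189.8 ± 23.1 for the p75NTRko label and 275 ± 216 for the 5xFAD/p75NTRko label (SD, n = 3 each). Fos averaged 7.44 ± 2.29 CPM for WT, 11.8 ± 2.87 for 5xFAD, 10.7 ± 6.66 for the p75NTRko label and 15.4 ± 16.1 for the 5xFAD/p75NTRko label (SD, n = 3 each). Arc averaged 46.5 ± 8.87 CPM for WT, 47.95 ± 20.5 for 5xFAD, 54.5 ± 18.8 for the p75NTRko label and 71.7 ± 70.8 for the 5xFAD/p75NTRko label (SD, n = 3 each). In 5xFAD against WT the log2 fold change was 0.66 (95% interval -0.62 to 1.93) for Fos, -0.01 (95% interval -0.83 to 0.80) for Egr1 and 0.04 (95% interval -1.07 to 1.15) for Arc, so changes of either sign are within the error. For these 3 standard activity markers all genotypes overlapped, and the SD of the double genotype was about as large as its mean for Fos and Arc.

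In p75NTRko-labelled libraries against WT, 6 of 36 members did not overlap (16.4% of all tested genes did not): Jun, Nr4a3, Dusp6 and Plk2 lay higher, Npas4 and Rgs2 lower. Unadjusted p was below 0.05 for 5 of 36, against 11.5% of all tested genes: 3 upward (5.33% of all tested genes) and 2 downward (6.16%). The median log2 fold change was -0.02 for rapid transcription factors, -0.02 for rapid regulators and 0.25 for effectors, against -0.001 for all tested genes. When libraries were left out in turn these medians spanned -0.16 to 0.16, -0.20 to 0.10 and 0.06 to 0.32, and the lowest effector median was without WT replicate 2. Neither count stands far from the share over the whole table.

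Klf6 (chr13:5861482-5870394, plus strand, GRCm38), a Krüppel-like factor, had the smallest p. It was at 99.97, 79.2 and 69.3 CPM for WT (replicates 1, 2 and 3), 94.1, 96.9 and 95.3 for 5xFAD, 70.4, 52.9 and 50.7 for the p75NTRko label and 82.9, 73.3 and 86.7 for the 5xFAD/p75NTRko label. Replicates 2 and 3 of the p75NTRko-labelled libraries were the lowest of all 12, replicate 1 overlapped WT, and the 5xFAD libraries lay together near the top. Means were 82.8 ± 15.6 CPM for WT, 95.4 ± 1.42 for 5xFAD, 58.005 ± 10.8 for the p75NTRko label and 80.98 ± 6.93 for the 5xFAD/p75NTRko label (SD, n = 3 each). The log2 fold change was -0.52 (SE 0.144, edgeR adjusted p 0.264) against WT, and 0.48 (SE 0.145, edgeR adjusted p 0.652) in 5xFAD/p75NTRko-labelled against p75NTRko-labelled libraries. With Xist class as a term these were -0.24 and 0.20 (adjusted p 0.840 and 0.987 by edgeR). Replicates 2 and 3 were also the p75NTRko-labelled libraries with low Xist, and the Xist term was estimated from them against replicate 1 alone.

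Jun, the main partner of Fos in AP-1, was at 106, 125 and 142 CPM for WT (replicates 1, 2 and 3), 148, 144 and 127 for 5xFAD, 146, 172 and 169 for the p75NTRko label and 160.2, 179 and 137 for the 5xFAD/p75NTRko label. WT was the lowest genotype on average, with a log2 fold change of 0.39 (SE 0.125, edgeR adjusted p 0.331) for the p75NTRko label and 0.35 (SE 0.125, edgeR adjusted p 0.469) for the 5xFAD/p75NTRko label, each against WT. Both comparisons share the WT libraries. Nr4a3, an orphan nuclear receptor, was at 44.1, 73.2 and 66.2 CPM for WT (replicates 1, 2 and 3), 74.5, 69.9 and 83.5 for 5xFAD, 75.997, 86.7 and 94.7 for the p75NTRko label and 66.1, 80.7 and 54.9 for the 5xFAD/p75NTRko label, with 0.49 (SE 0.173, edgeR adjusted p 0.347) in p75NTRko-labelled against WT. Plk2 had 0.44 (SE 0.153, edgeR adjusted p 0.344) in the same comparison. Thalamic markers were 308 to 356 CPM in p75NTRko-labelled libraries, below the 555 to 798 CPM of WT, and their part in these differences was not tested.

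**Figure D5:**
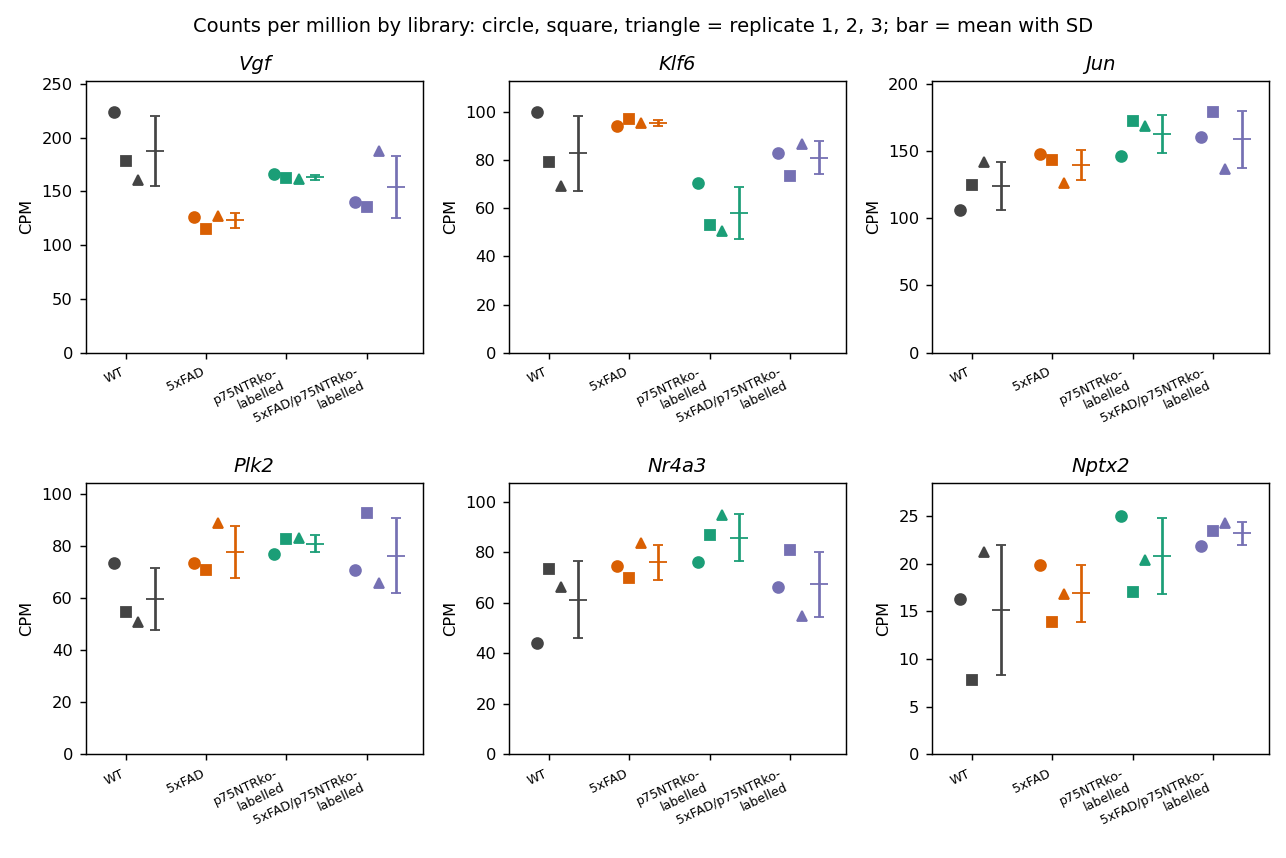
CPM of 6 of the members with the smallest p-values in the genotype comparisons, in each library by genotype as labelled (circle, square and triangle are replicates 1, 2 and 3, and the bar is the mean with SD over 3 libraries), on linear axes from 0. The 3 5xFAD libraries have the lowest Vgf, at 115 to 127 CPM, and Klf6 is lowest in p75NTRko-labelled replicates 2 and 3.

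For the 5xFAD/p75NTRko-labelled libraries the fold changes of rapid genes depended on replicate 3. Against 5xFAD, the log2 fold change was 0.40 (SE 0.564) for Fos, 0.32 (SE 0.383) for Egr1, 0.59 (SE 0.512) for Arc and 0.41 (SE 0.387) for Nr4a1, with adjusted p of 0.988 to 0.990 by edgeR. Without replicate 3 they were -0.95, -0.55, -0.63 and -0.45, so each changed sign. For Egr2, 1.63 (SE 0.803, edgeR adjusted p 0.980) became -0.27. The median over rapid transcription factors was 0.13 with and -0.37 without replicate 3, and over rapid regulators 0.21 and -0.28. Over effectors the median was 0.29 with and 0.22 without it, although Arc, one of them, changed sign.

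Of 36 members, 1 had an unadjusted p below 0.05 against 5xFAD (5.08% of all tested genes did, 1.98% upward and 3.1% downward), which was Vgf upward (log2 fold change 0.33, SE 0.134, edgeR adjusted p 0.878). Without replicate 3 the Vgf fold change was 0.16. Klf6 (lower), Nptx2 and Vgf (higher) did not overlap, 3 of 36 against 11.2% of all tested genes. Klf4, a factor of growth arrest, was at 5.08, 7.47 and 14.3 CPM for WT (replicates 1, 2 and 3), 6.62, 12.02 and 12.6 for 5xFAD, 8.71, 5.52 and 6.39 for the p75NTRko label and 7.16, 7.797 and 5.25 for the 5xFAD/p75NTRko label, with -0.62 (SE 0.353, edgeR adjusted p 0.980) in this comparison. Its libraries overlapped between all genotypes.

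Against p75NTRko-labelled libraries, 1 of 36 had an unadjusted p below 0.05, against 6.59% of all tested genes (3.6% upward, 2.99% downward), and it was also the 1 member that did not overlap (against 12.3%): Klf6, higher in the double genotype as given above. Median log2 fold changes were 0.21 for rapid transcription factors, -0.01 for rapid regulators and 0.05 for effectors. Without replicate 3 the first became -0.28 and the second -0.35, and without p75NTRko-labelled replicate 2 the third became -0.01. Fos had 0.58, Egr1 0.54, Arc 0.41 and Nr4a1 0.42 with that replicate, and -0.77, -0.33, -0.81 and -0.44 without it.

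Against WT, 4 of 36 members had an unadjusted p below 0.05, 3 upward and 1 downward, against 9.95% of all tested genes (5.51% upward, 4.44% downward). Nptx2, a secreted pentraxin that clusters AMPA receptors on interneurons, was the 1 member that did not overlap (11.5% of all tested genes did not). It was at 16.3, 7.79 and 21.2 CPM for WT (replicates 1, 2 and 3), 19.9, 13.9 and 16.8 for 5xFAD, 25.02, 17.01 and 20.4 for the p75NTRko label and 21.8, 23.4 and 24.3 for the 5xFAD/p75NTRko label. WT replicate 2 was the lowest library by far, and the 5xFAD/p75NTRko-labelled libraries were close to each other. The log2 fold change was 0.62 (SE 0.262, edgeR adjusted p 0.491), falling to 0.31 without WT replicate 2. Median log2 fold changes were 0.14 for rapid transcription factors, -0.01 for rapid regulators and 0.39 for effectors, against 0.004 for all tested genes. Without replicate 3 the first was -0.30 and the second -0.29, and the median over effectors was 0.15, or 0.11 without WT replicate 2. Fos had 1.06 (SE 0.581, edgeR adjusted p 0.539) with replicate 3 and -0.30 without it.

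The interaction asks whether the 5xFAD effect differed with the p75NTRko label. It also carries a difference in animal sex. Xist was high in all WT and 5xFAD/p75NTRko-labelled libraries, low in all 5xFAD libraries and mixed in the p75NTRko-labelled ones. 3 of 36 members had an unadjusted p below 0.05, against 9.32% of all tested genes (5.19% upward, 4.13% downward), and these were Vgf (log2 0.53, SE 0.189, edgeR adjusted p 0.445), Nr4a3 (-0.67, SE 0.246, adjusted p 0.460) and Plk2 (-0.46, SE 0.215, adjusted p 0.534). Vgf had a log2 fold change of -0.61 between 5xFAD and WT and of -0.08 in 5xFAD/p75NTRko-labelled against p75NTRko-labelled libraries, a difference that did not pass the adjusted threshold. Median values were 0.13 for rapid transcription factors, 0.21 for rapid regulators and 0.06 for effectors, against 0.002 for all tested genes. The first was -0.33 and the second -0.23 without replicate 3 of the double genotype, and the third -0.09 without WT replicate 1.

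Further genes of the same pathway were read from a list of 30 other activity-regulated genes (29 tested) and a list of 19 upstream genes, which carry synaptic calcium to the nucleus (18 tested). 0 genes of either list passed an adjusted p of 0.05 in any comparison by edgeR. At an unadjusted p below 0.05, the other activity-regulated genes gave 5 of 29 (3 upward) in 5xFAD against WT (13.9% of all tested genes), 5 (3 upward) in p75NTRko-labelled against WT (11.5%) and 7 (6 upward) in 5xFAD/p75NTRko-labelled against WT (9.95%). The upstream genes gave 5 of 18 (all upward), 6 (5 upward) and 4 (all upward) in the same comparisons, which share the WT libraries. In 5xFAD/p75NTRko-labelled libraries the other activity-regulated genes gave 1 (downward) against 5xFAD (5.08% of all tested genes) and 2 (upward) against p75NTRko-labelled (6.59%), and the upstream genes 1 (downward) and 0. In the interaction the lists gave 4 (3 upward) and 3 (1 upward), against 9.32% of all tested genes.

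Tiparp, an ADP-ribosyltransferase, was at 7.17, 7.63 and 11.8 CPM for WT (replicates 1, 2 and 3), 20.04, 15.6 and 17.3 for 5xFAD, 13.2, 13.8 and 11.6 for the p75NTRko label and 14.8, 11.3 and 11.97 for the 5xFAD/p75NTRko label, and 5xFAD lay above WT in every library, with a log2 fold change of 0.997 (SE 0.201, edgeR adjusted p 0.0994). Sorcs3, a sorting receptor of the postsynaptic density, was at 52.1, 44.8 and 50.4 CPM for WT (replicates 1, 2 and 3), 66.4, 62.3 and 72.6 for 5xFAD, 48.2, 47.4 and 46.4 for the p75NTRko label and 58.8, 67.8 and 57.9 for the 5xFAD/p75NTRko label, and the 6 libraries with the 5xFAD label lay above the other 6. Its log2 fold change was 0.45 (SE 0.105, edgeR adjusted p 0.141) in 5xFAD against WT and 0.38 (SE 0.106, edgeR adjusted p 0.606) in 5xFAD/p75NTRko-labelled against p75NTRko-labelled libraries. Penk, the enkephalin precursor, was at 123, 110.03 and 61.4 CPM for WT (replicates 1, 2 and 3), 53.5, 70.8 and 62.1 for 5xFAD, 47.8, 56.1 and 54.1 for the p75NTRko label and 53.5, 45.8 and 60.005 for the 5xFAD/p75NTRko label. WT replicates 1 and 2, the libraries with raised neocortical markers after replicate 3 of the double genotype, held the 2 highest Penk values, while that replicate 3 had 60.005 CPM. The log2 fold change in p75NTRko-labelled against WT was -0.90 (SE 0.202, edgeR adjusted p 0.171). Striatal markers summed to 137 to 156 CPM in WT and 99.8 to 121 CPM in p75NTRko-labelled libraries. WT replicate 3, with the highest striatal sum, had Penk at 61.4 CPM. The part of either marker list in the Penk difference was not tested.

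Of the upstream genes, Camk2b, the beta subunit of calcium/calmodulin-dependent kinase II, was at 402, 389.8 and 455 CPM for WT (replicates 1, 2 and 3), 520.2, 504 and 602 for 5xFAD, 539, 544 and 582 for the p75NTRko label and 508, 604 and 435 for the 5xFAD/p75NTRko label. WT was the lowest genotype on average, with a log2 fold change of 0.38 (SE 0.116, edgeR adjusted p 0.236) in 5xFAD and 0.42 (SE 0.116, edgeR adjusted p 0.263) in p75NTRko-labelled libraries. Hippocampal neuron markers differed by a similar amount, with median log2 fold changes of 0.40 and 0.41 and sums of 2761 to 2944 CPM in WT, 3130 to 3688 CPM in 5xFAD and 3274 to 3454 CPM in p75NTRko-labelled libraries, and their part in the upstream genes was not tested. Ppp3ca, the catalytic subunit of calcineurin, was at 3449, 2647 and 4901 CPM for WT (replicates 1, 2 and 3), 5767, 5475 and 6468 for 5xFAD, 5049, 4677 and 5138 for the p75NTRko label and 5124, 6268 and 3583 for the 5xFAD/p75NTRko label, with 0.69 (SE 0.202, edgeR adjusted p 0.234) in 5xFAD against WT. Mef2c, an activity-dependent factor that is also abundant in neocortex, was 898 CPM in 5xFAD/p75NTRko-labelled replicate 3, 938 and 635 CPM in WT replicates 1 and 2, and 221 to 443 CPM in the other 9 libraries. These 3 libraries were the 3 with the highest neocortical marker sums. The part of neocortical tissue in the Mef2c levels was not tested.

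Some members share exon sequence with a gene on the opposite strand, and the use of strand in counting is not given in the sources used here. Of 5 such members (Jun, Junb, Jund, Dusp1 and Dusp5), the partner was in the count table for 2, Junb with Prdx2 and Dusp1 with Ergic1. Reads of these pairs may not be told apart.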

How the data were processed

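The authors deposited whole-number read counts, not normalized, for each gene symbol in each of the 12 libraries. The submitters' processing notes name FastQC, HISAT2, SAMtools, HTSeq and edgeR and the build mm10, without roles or versions. Per the labels' protocols, RNA was extracted with Trizol and made into QuantSeq forward 3′ libraries, and a single batch label covers all of them. Library sizes and tests exclude the 5 summary lines of the counting program, and genes took 32.2% to 38.5% of all reads. Multiply aligned reads (9.57% to 12.1%) stand in a summary line, which leaves near-identical gene copies uncertain.

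The fit used edgeR 4.0.16 in R 4.3.3, with filterByExpr by genotype, TMM factors (0.975 to 1.03), and a quasi-likelihood fit of a mean per genotype to all 12 libraries, adjusted by Benjamini-Hochberg over 13065 genes with a threshold of 0.05. Each single genotype was compared with WT, 5xFAD/p75NTRko with the other 3 genotypes, and the interaction and any difference among the 4 were tested. CPM used TMM-scaled library sizes, log2 CPM a prior count of 2. With 3 libraries a genotype the p-values measure the spread between these libraries only, and counting limits cover counting error only, since reads carried no molecular identifiers. The code of the fit was run on simulated counts, with and without known changes. Those counts held no divergent library and no sex or tissue difference. The simulation therefore cannot show how the test performs for members whose spread rests on 1 library. Correlations and promoter matches were computed in Python 3.11.15.

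The members and lists were chosen with earlier results of these data known. Values in every library are given for the 3 members with the smallest p in each comparison, the 3 most abundant of each role, and Fos, Egr1, Arc and Npas4; further members were chosen after their values were seen. Of other pathway genes, those with the 3 smallest p of their list were eligible. Endothelial (10 genes), microglial (10), striatal (10) and blood (6) markers were also read: their sums were 215 to 289, 477 to 565, 99.8 to 156 and 0 to 0.999 CPM, with Drd2 and Gpr6 at 0 counts in all libraries. Same-numbered libraries were checked for pairing. Alternatives were DESeq2 1.42.0, RLE factors, no filter, a minimum mean of 50 counts, a fit of the compared genotypes alone, Xist class (split at 50 CPM) as a term, the replicate number as a block, and leaving out each library.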

Additional observations from a re-analysis of the deposited data

How the results depend on the processing

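The count of members past the threshold stayed at 0 under each alternative, except for 1 (Vgf) in 5xFAD against WT with DESeq2 (log2 fold change -0.61), without a filter on low counts (-0.62) and without WT replicate 3, and 2 (Klf6 and Vgf) among the 4 genotypes with DESeq2. Leaving out a library gave 0 to 1 members in 5xFAD against WT and 0 elsewhere. RLE factors moved no result.

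Counts over all genes moved more. 5xFAD against WT had 7 called genes, 98 with DESeq2, 44 with no filter, 19 with only the compared genotypes, 0 with Xist class as a term, 1 with the replicate block, and 1 to 57 when libraries were left out in turn. p75NTRko-labelled against WT had 0 called genes, 55 with DESeq2, 46 with no filter, 21 with only the compared genotypes, 1 with Xist class as a term, and 0 to 26 when libraries were left out in turn. 5xFAD/p75NTRko-labelled against 5xFAD had 5 called genes, 20 with DESeq2, 14 with no filter, 1 with a minimum mean of 50 counts, 9 with only the compared genotypes, 0 with Xist class as a term, 0 with the replicate block, and 0 to 7 when libraries were left out in turn. 5xFAD/p75NTRko-labelled against p75NTRko-labelled had 0 called genes, 19 with DESeq2, 6 with no filter, 1 with Xist class as a term, and 0 to 25 when libraries were left out in turn. 5xFAD/p75NTRko-labelled against WT had 0 called genes, 30 with DESeq2, 16 with no filter, 1 with only the compared genotypes, and 0 to 4 when libraries were left out in turn. The interaction had 5 called genes, 25 with DESeq2, 15 with no filter, 3 with a minimum mean of 50 counts, 1 with Xist class as a term, 3 with the replicate block, and 3 to 20 when libraries were left out in turn. Any difference among the 4 genotypes had 13 called genes, 181 with DESeq2, 81 with no filter, 4 with Xist class as a term, 4 with the replicate block, and 1 to 53 when libraries were left out in turn. The replicate block moved no other count or call.

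For 5xFAD/p75NTRko-labelled libraries, 14 fold changes changed sign when replicate 3 was left out. Over libraries left out in turn, against 5xFAD it spanned -0.95 to 0.85 for Fos, -0.55 to 0.65 for Egr1, -0.27 to 2.13 for Egr2, -0.63 to 1.001 for Arc, -0.45 to 0.73 for Nr4a1; against p75NTRko-labelled it spanned -0.77 to 1.17 for Fos, -0.33 to 0.86 for Egr1, -0.41 to 2.26 for Egr2, -0.81 to 0.82 for Arc, -0.44 to 0.74 for Nr4a1; against WT it spanned -0.30 to 1.496 for Fos, -0.57 to 0.63 for Egr1, -0.59 to 1.04 for Arc, -0.39 to 0.79 for Nr4a1. The median of rapid transcription factors spanned -0.37 to 0.22 against 5xFAD, -0.28 to 0.41 against p75NTRko-labelled libraries, -0.30 to 0.28 against WT and -0.33 to 0.30 in the interaction, each lowest without replicate 3. The median of rapid regulators spanned -0.28 to 0.42 against 5xFAD, -0.35 to 0.15 against p75NTRko-labelled libraries, -0.29 to 0.25 against WT and -0.23 to 0.39 in the interaction, each lowest without replicate 3. Vgf in 5xFAD against WT kept its sign, at -0.72 to -0.46. Members with r above 0.7 with Egr1 numbered 13, 9 without the 2 libraries farthest from its median and 3 without 5xFAD/p75NTRko-labelled replicate 3, both left out after the data were seen.

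Replicate numbers did not pair the libraries: over 18 same-numbered pairs of deviations from genotype means, r was -0.42 to 0.14 (median -0.02), and 2 of 12 libraries correlated best with their own number.

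Depth limits the low members: Npas4 had 5 to 18 counts a library and Egr2 6 to 131. The causes of these changes were not tested, except that fewer genes enter a fit with a stricter filter and fewer libraries a fit that leaves 1 out.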
